A study of Mus musculus with 6 samples.

Results

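The factors of nonsense-mediated mRNA decay (NMD) were examined in STRA8+ germ cells from the testes of *Srsf1* cKO and control mice. The 9 factors *Upf1*, *Upf2*, *Upf3a*, *Upf3b*, *Smg1*, *Smg5*, *Smg6*, *Smg8* and *Smg9* were chosen by name, and each had a row among the 54532 genes of the deposited table. NMD destroys mRNAs on which a ribosome stops too early, and it also sets the level of many normal transcripts. A stop codon upstream of an exon junction complex, the protein mark that splicing leaves near exon ends, brings UPF2 and a UPF3 protein to the RNA helicase UPF1. The kinase SMG1, held in check by SMG8 and SMG9, then phosphorylates UPF1, and SMG5 and SMG6 bind the phosphorylated protein and start decay. Male germ cells are known for high levels of UPF3A and for holding NMD proteins in the chromatoid body, an RNA granule of late spermatocytes and spermatids.

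RNA-seq was done on 3 control libraries, whose genotype label reads Cre, and on 3 libraries labelled as *Srsf1* knockout, which the labels describe as conditional (cKO). SRSF1 is a splicing factor that binds exonic enhancers. STRA8 is made by germ cells that enter differentiation and meiosis. The Cre driver, the age of the mice, the means by which STRA8+ cells were isolated and whether each library came from a separate animal are not given in the sources used here, so the p-values measure the spread between these libraries, which may be technical. Levels are given in FPKM, the fragments on a gene scaled to its length in kilobases and to the size of the library. Between 14447887 and 17310353 fragments per library were counted on genes. The library size implied by the deposited FPKM was not this count. It was 0.971, 0.998 and 0.999 times the count in control replicates 1, 2 and 3. In cKO replicates 1, 2 and 3 it was 1.025, 0.993 and 1.052 times the count. Recomputed FPKM, an alternative named below, uses the count itself.

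*Srsf1* itself checked the labels. Its level was 84.7, 45.2 and 51.9 FPKM in control replicates 1, 2 and 3, and 5.08, 4.94 and 5.17 FPKM in cKO replicates 1, 2 and 3. Every cKO library lay far below every control library, and the cKO mean was 8.36% of the control mean. On the log2(FPKM + 1) scale, *Srsf1* fell by 3.29 (SE 0.22, limma, Benjamini-Hochberg adjusted p = 5.6e-05). Log2 fold changes below are cKO against control and are on this scale, except where an alternative or a range over alternatives is named. This scale shrinks the change of a gene whose FPKM is low. The cell label was checked too. Germ cell genes were present in both groups, but the control libraries also held spermatid transcripts far above the level of *Stra8*. *Tnp2*, for example, was at 708, 2648 and 775 FPKM in control replicates 1, 2 and 3. *Stra8* was at 244 FPKM in control and 272 FPKM in cKO cells, and did not pass the test. The germ cell gene *Dazl* was called higher, at 392 FPKM in control and 529 FPKM in cKO cells (log2 fold change 0.43, SE 0.10, limma, Benjamini-Hochberg adjusted p = 0.016). *Ddx4*, another germ cell gene, was called lower, at 159.5 and 135 FPKM (log2 fold change -0.24, adjusted p = 0.048).

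Among the NMD factors, *Smg9* and *Upf3a* fell to about the level of 51.5% and 55.0% of control, *Smg1* was higher at 130% of control, and the other 6 did not pass the test. Genes were called when the adjusted p was at most 0.05 in a fit over the 15451 genes whose mean over the 6 libraries reached 1 FPKM, and all 9 factors were among the genes tested. Of the 9, 1 was called higher and 2 were called lower in cKO cells. The *Smg1* call held in 10 of 15 alternatives, which include leaving out each library, and those of *Upf3a* and *Smg9* in all 15. The *Smg1* call was lost with the replicate number as a block, and without control replicate 1 or 2 or cKO replicate 1 or 2. Over all genes tested, 11.8% were called higher and 22.2% were called lower, so the shares among the factors were near this background. The median log2 fold change of the 9 factors was -0.06, beside -0.01 over all genes tested. Summed over the 9 factors, the level was 275.0 ± 8.68 FPKM in the control group, and in the cKO group it was 269.9 ± 14.1 FPKM (SD, n = 3).

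**Figure D1:**
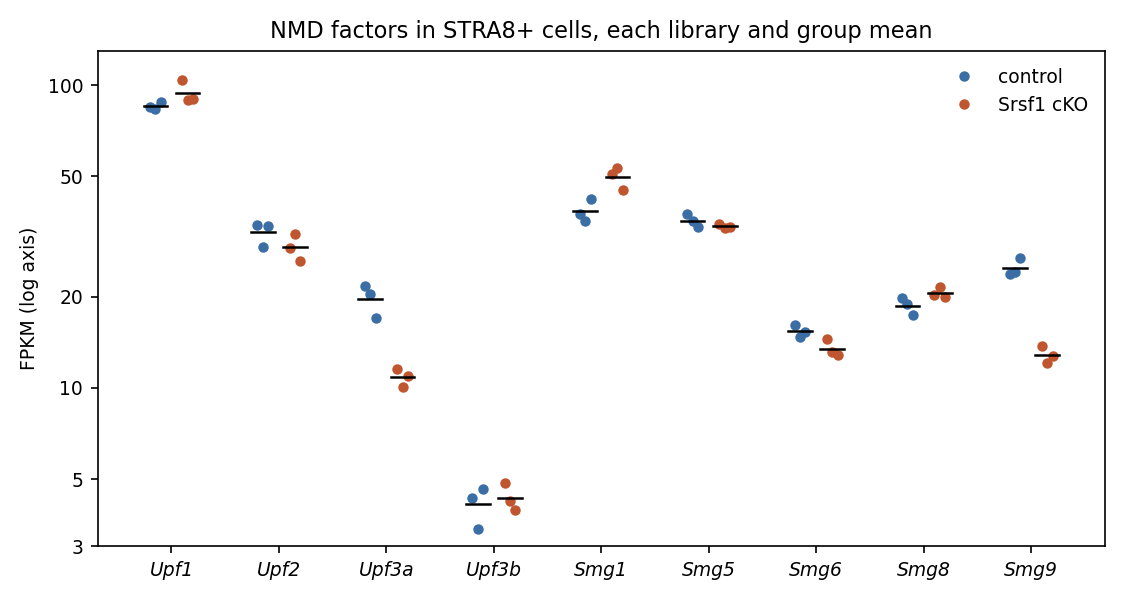
FPKM of the 9 NMD factors on a log axis, with a point for each of the 3 control (blue) and 3 cKO (orange) libraries and a black line at each group mean. The cKO points of *Upf3a* and *Smg9* lie below all control points, those of *Smg1* lie above, and *Upf2*, *Upf3b* and *Smg5* overlap between the groups.

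UPF1 is the helicase on which the pathway turns, and *Upf1* had the highest level of the 9 in both groups. It was at 84.7, 83.2 and 88.3 FPKM in the control libraries and at 104, 89.5 and 89.7 FPKM in the cKO libraries. The lowest cKO library stood just above the highest control library, and cKO replicate 1 stood apart from the other cKO libraries. The difference did not pass the test (log2 fold change 0.14, SE 0.08, limma, Benjamini-Hochberg adjusted p = 0.22), and its 95% confidence interval ran from -0.05 to 0.33. Without cKO replicate 1 the log2 fold change was 0.07 (adjusted p = 0.51), and with quantile normalization it was 0.23 (adjusted p = 0.076), over a range of 0.076 to 0.51 across the alternatives. *Upf1* made up 31.1% of the summed FPKM of the 9 factors in control and 35.02% in cKO cells.

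UPF2 is the adaptor between UPF1 and the UPF3 proteins. *Upf2* was at 34.6, 29.2 and 34.2 FPKM in the control libraries and at 28.9, 32.3 and 26.3 FPKM in the cKO libraries. The groups overlapped, and the log2 fold change was -0.16 (SE 0.10, 95% confidence interval -0.40 to 0.09, limma, Benjamini-Hochberg adjusted p = 0.28). It was -0.09 without cKO replicate 3 and -0.05 with quantile normalization.

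UPF3A and UPF3B are paralogs that link UPF2 to the exon junction complex, and *Upf3b* lies on the X chromosome, which is silenced in pachytene spermatocytes. *Upf3a* was at 21.8, 20.4 and 17.0 FPKM in the control libraries and at 11.55, 10.04 and 10.96 FPKM in the cKO libraries. All cKO libraries were below all control libraries, by more than the spread within either group. *Upf3a* fell by 0.80 (SE 0.11, limma, Benjamini-Hochberg adjusted p = 0.0016), with a 95% confidence interval from -1.06 to -0.54. The call rested on 862 to 2105 fragments per library.

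*Upf3b* had the lowest level of the 9 factors, at 4.34, 3.43 and 4.64 FPKM in the control libraries and at 4.84, 4.24 and 3.95 FPKM in the cKO libraries. The groups overlapped, with 210 to 321 fragments per library on the gene. Its log2 fold change was 0.06 (SE 0.13, limma, Benjamini-Hochberg adjusted p = 0.75), and the 95% confidence interval from -0.25 to 0.37 covered both directions. The value was -0.043 and -0.0054 without control replicate 2 and without cKO replicate 1, and 0.09, 0.13 and 0.11 without control replicate 1, control replicate 3 and cKO replicate 3. With quantile normalization it was 0.37 (adjusted p = 0.071, over a range of 0.071 to 0.98 across the alternatives), and with recomputed FPKM and limma-voom it was 0.10 and 0.12.

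The paralogs were also set against each other. The ratio of *Upf3a* to *Upf3b* was 5.02, 5.95 and 3.67 in the control libraries and 2.39, 2.37 and 2.78 in the cKO libraries. All 3 cKO ratios were below all 3 control ratios. On the log2 scale, without a pseudocount, the mean ratio was 2.26 ± 0.35 in control and 1.32 ± 0.13 in cKO libraries (SD, n = 3), a difference of -0.93. The two-sided exact permutation test gave p = 0.1, which is the smallest p that 3 libraries against 3 can give. The test therefore could not reach 0.05 at any size of difference.

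The SMG1 complex holds the kinase and its regulators SMG8 and SMG9. Of its 3 genes 1 was called higher, 1 was called lower and *Smg8* was not called. Over all genes tested, 11.8% were called higher and 22.2% lower. *Smg1* was at 37.5, 35.6 and 42.1 FPKM in the control libraries and at 51.0, 53.3 and 45.2 FPKM in the cKO libraries. The groups did not overlap, and the log2 fold change of 0.37 passed the test (SE 0.09, limma, Benjamini-Hochberg adjusted p = 0.023). The call was lost when control replicate 1 (adjusted p = 0.073), control replicate 2 (0.056), cKO replicate 1 (0.072) or cKO replicate 2 (0.066) was left out, with log2 fold changes of 0.32 to 0.35 in these 4 fits. Over all 15 alternatives, which include these fits, the limma adjusted p of *Smg1* ran from 0.0058 to 0.085. The highest came with the replicate number as a block, where the call was also lost.

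*Smg9* had the largest absolute log2 fold change of the 9 factors in this fit, with *Upf3a* next. It was at 23.7, 24.1 and 26.9 FPKM in the control libraries and at 13.7, 12.1 and 12.7 FPKM in the cKO libraries. The highest cKO library was far below the lowest control library. *Smg9* fell by 0.90 (SE 0.08, 95% confidence interval -1.10 to -0.71, limma, Benjamini-Hochberg adjusted p = 0.00025), with 656 to 1723 fragments per library.

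*Smg8*, whose protein binds SMG1 together with SMG9, was at 19.9, 18.9 and 17.3 FPKM in the control libraries and at 20.4, 21.5 and 19.98 FPKM in the cKO libraries. The cKO libraries lay just above the control libraries without passing the test (log2 fold change 0.13, SE 0.08, limma, Benjamini-Hochberg adjusted p = 0.22). Without control replicate 3 the log2 fold change was 0.09. With quantile normalization *Smg8* was called, at a log2 fold change of 0.27 (adjusted p = 0.021, over a range of 0.021 to 0.51 across the alternatives). That normalization also moved the median of all genes from -0.01 to 0.21. The ratio of *Smg9* to *Smg8* was 1.196, 1.28 and 1.55 in the control libraries and 0.674, 0.564 and 0.637 in the cKO libraries. All 3 cKO ratios were below all 3 control ratios, and whether a ratio lies above or below 1 rests on the gene lengths of the table. No test was run on this ratio, which was looked at after the values of both genes had been seen.

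SMG5 and SMG6 act downstream, SMG6 as the endonuclease that cuts the target and SMG5 as an adaptor that helps to recruit decapping and deadenylation enzymes. *Smg5* was at 37.4, 35.5 and 34.0 FPKM in the control libraries and at 34.8, 33.6 and 34.1 FPKM in the cKO libraries. These overlapped, and the log2 fold change was -0.06 (SE 0.06, limma, Benjamini-Hochberg adjusted p = 0.52). It was -0.02 without control replicate 1, -0.09 without control replicate 3, -0.01 with recomputed FPKM or limma-voom, and 0.04 with quantile normalization. *Smg6* was at 16.2, 14.7 and 15.3 FPKM in the control libraries and at 14.5, 13.2 and 12.8 FPKM in the cKO libraries. Its cKO libraries were all below its control libraries by a narrow gap, and the difference did not pass the test (log2 fold change -0.18, SE 0.08, limma, Benjamini-Hochberg adjusted p = 0.13). With quantile normalization its log2 fold change was -0.03.

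Counted by overlap alone, 3 of the 9 factors had all cKO libraries above all control libraries, 3 had them all below, and 3 overlapped. Over all genes tested, 21.8% lay wholly above and 28.6% wholly below.

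**Figure D2:**
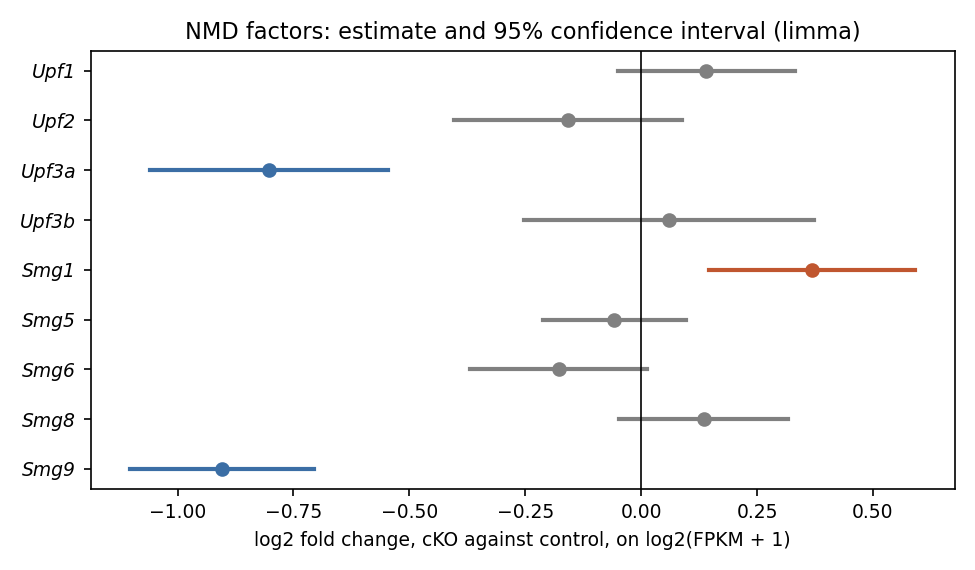
Log2 fold change of each NMD factor, cKO against control, on log2(FPKM + 1), as points with the 95% confidence interval from limma. Orange marks a call higher in cKO (*Smg1*), blue marks calls lower in cKO (*Upf3a* and *Smg9*) and grey marks the 6 factors that were not called, whose intervals all include 0. *Smg5* changed sign with quantile normalization, and *Upf3b* did so without control replicate 2 or without cKO replicate 1. The *Smg1* call held in 10 of 15 alternatives, which include leaving out each library.

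In order of mean level, control cells had *Upf1* at 85.4 FPKM, followed by *Smg1* (38.4), *Smg5* (35.7), *Upf2* (32.7), *Smg9* (24.9), *Upf3a* (19.7), *Smg8* (18.7), *Smg6* (15.4) and *Upf3b* (4.14). The libraries of *Smg1*, *Smg5* and *Upf2* overlapped with their neighbours in this order, as did those of *Upf3a* and *Smg8*. In cKO cells *Smg8* (20.6 FPKM) and *Smg6* (13.5) stood above *Smg9* (12.8) and *Upf3a* (10.8), and of neighbours in that order those of *Smg6* and *Smg9* overlapped. The level of *Upf1* was above that of 97.1% of the genes tested in control cells, and that of *Upf3b* above 35.6%. These levels rest on the gene lengths of the deposited table, which were longer than the longest coding transcript for some factors. The length was 5865 bases for *Upf3a*, whose coding transcript has 2057, and 3999 bases for *Upf3b*, whose coding transcript has 2344. *Smg1* was scaled to 23984 bases with a coding transcript of 15557, and *Smg9* to 3702 bases with a coding transcript of 2242. The order between genes, and the size of a ratio between them, would change with other lengths.

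The genes most alike in pattern were sought among 8208 protein-coding genes whose mean reached 5 FPKM, by Pearson's r of log2(FPKM + 1) over the 6 libraries. For *Upf3a* these were *Tprgl* (r = 0.9998), *Mcat* (r = 0.999) and *Khdrbs3* (r = 0.996), and 861 genes had r above 0.95. For *Upf1* they were *Nup214* (r = 0.995), *Adcy3* (r = 0.990) and *Ube2o* (r = 0.987), which share its high value in cKO replicate 1. For *Upf3b*, *Stom* (r = 0.978) and *Slc4a2* (r = 0.972) were among the most alike. These values describe 6 libraries in 2 groups, and a gene that differs between the groups is alike to any other that differs the same way.

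Markers of later germ cell stages moved with the groups. Of 10 markers of pachytene spermatocytes, 9 were called lower in cKO cells (*Mybl1*, at 19.1 and 19.3 FPKM, was not), and all 10 markers of spermatids were called lower. The summed level of the pachytene markers was 946, 995 and 826 FPKM in the control libraries and 148, 127 and 129.9 FPKM in the cKO libraries. For the spermatid markers it was 2545, 8396 and 2498 FPKM in control and 5.71, 6.79 and 5.90 FPKM in cKO libraries. *Ldhc*, the most abundant pachytene marker, fell from 385 to 1.07 FPKM. *Tnp2*, the most abundant spermatid marker, fell from 1377 to 0.560 FPKM, and *Catsper1* was listed at 0 in all 3 cKO libraries. Fewer cells of a type and less RNA per cell cannot be told apart in such bulk samples. The part of these later stages in the fall of *Upf3a* and *Smg9* was not tested. Nor was it tested for the rise of *Smg1* or for any other gene called higher or lower in this report.

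Control replicate 2 held over 3 times the spermatid marker level of the other control libraries. Without it *Upf3a* fell by 0.78 (limma, Benjamini-Hochberg adjusted p = 0.0061) and *Smg9* fell by 0.93 (adjusted p = 0.00086). With all libraries the log2 fold changes were -0.80 and -0.90. Control replicates 1 and 3 still held spermatid markers at 2545 and 2498 FPKM, so leaving out control replicate 2 does not test the part of spermatids.

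Fewer markers of earlier stages were called, and their counts stand beside 11.8% higher and 22.2% lower over all genes tested. Of 10 early meiotic prophase markers, 2 were called lower and none higher, namely *Spo11* (18.7 to 8.86 FPKM) and *Rec8* (20.7 to 13.6 FPKM), and their summed level was 1274, 933 and 1175 FPKM in control and 1008, 1249 and 942 FPKM in cKO libraries. The most abundant of them, *Sycp3*, was at 222 and 218 FPKM. Of 10 differentiating spermatogonia markers, 1 was called higher (*Crabp1*) and 1 lower (*Dmrtb1*), with sums of 1016, 1146 and 994 FPKM in control and 1252, 1128 and 1277 FPKM in cKO libraries. Of 10 markers of undifferentiated spermatogonia, 9 were tested, 1 was called higher (*Ret*) and 1 lower (*Id4*). *Kit* and *Stra8* stand in 2 of these lists.

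Somatic cells left traces in both groups. Sertoli cell markers summed to 98.0, 80.2 and 118 FPKM in control and 161, 65.3 and 87.9 FPKM in cKO libraries, with *Clu* the most abundant at 52.5 and 52.1 FPKM, and 1 of the 9 tested was called (*Rhox5*, higher). Leydig, peritubular, macrophage and blood, and endothelial markers had few genes above a mean of 1 FPKM (2 of 6, 2 of 5, 3 of 7 and 0 of 3), and none of those tested was called. *Lyz2*, the most abundant of the macrophage markers, was at 9.23, 25.8 and 7.995 FPKM in control and at 4.69, 13.5 and 8.25 FPKM in cKO libraries, which overlapped, and its control mean rested on control replicate 2.

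Among other NMD factors, 10 were tested of 11 listed, since *Ctif* was below a mean of 1 FPKM. Of the 10, 2 were called higher and 3 lower, near the 11.8% and 22.2% over all genes tested. With quantile normalization 4 were called higher and 2 lower, beside 33.4% and 16.4% over all genes in that fit. *Dhx34*, which encodes a helicase that acts with UPF1 and SMG1, was at 11.7, 11.5 and 9.67 FPKM in control and at 5.08, 5.08 and 6.30 FPKM in cKO libraries, a log2 fold change of -0.88 (SE 0.12, adjusted p = 0.0015). *Ruvbl1* and *Ruvbl2* encode partner ATPases that assemble into a common ring, and they were called in opposite directions. *Ruvbl1* had a log2 fold change of 0.27 (SE 0.07, adjusted p = 0.031) and *Ruvbl2* one of -0.41 (SE 0.08, adjusted p = 0.0077). *Ncbp2*, for a subunit of the nuclear cap-binding complex, was called higher (log2 fold change 0.34, adjusted p = 0.018). *Nbas* had an adjusted p of 0.049 and was not called with 3 of the other scalings.

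The exon junction complex is the mark that UPF3 proteins read. Of its 11 genes, 4 were called higher and none lower, beside 11.8% and 22.2% over all genes tested, and the median of their log2 fold changes was 0.18. The count called higher was 5 with the median of ratios, 6 with recomputed FPKM or limma-voom and 7 with quantile normalization. Over all genes in those fits 12.7%, 14.8%, 16.1% and 33.4% were called higher. *Magoh* was at 87.9, 84.4 and 84.7 FPKM in control and at 113, 123 and 115 FPKM in cKO libraries (log2 fold change 0.44, SE 0.06, adjusted p = 0.0020), and the cKO values were above every control value. *Rbm8a*, which encodes the partner of MAGOH (Y14), had a log2 fold change of 0.43 (SE 0.10, adjusted p = 0.018). *Eif4a3*, for the helicase that anchors the complex on RNA, had one of 0.32 (SE 0.08, adjusted p = 0.025), and *Alyref*, for an mRNA export adaptor, had one of 0.47 (SE 0.08, adjusted p = 0.0056).

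Translation termination is the step that NMD reads. Of 6 genes, 1 was called higher and 1 lower, beside 11.8% and 22.2% over all genes tested. With quantile normalization 3 were called higher and 1 lower, beside 33.4% and 16.4% over all genes in that fit. *Pabpc1*, for the cytoplasmic poly(A)-binding protein that opposes NMD near a normal stop codon, was at 230, 208 and 204 FPKM in control and at 166, 128 and 145 FPKM in cKO libraries (log2 fold change -0.55, SE 0.11, adjusted p = 0.0083). *Abce1*, for the ATPase that recycles ribosomes, was called higher (log2 fold change 0.22, SE 0.06, adjusted p = 0.037).

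Decay from the 5′ end had 12 tested genes of 13 listed, since *Pat1b* had no row in the table. Of the 12, 5 were called higher and 2 lower, beside 11.8% and 22.2% over all genes tested. With quantile normalization 6 were called higher and 1 lower, beside 33.4% and 16.4%. *Xrn1*, for the cytoplasmic 5′ to 3′ exonuclease, was at 5.43, 5.67 and 5.84 FPKM in control and at 7.96, 9.54 and 7.82 FPKM in cKO libraries (log2 fold change 0.50, SE 0.10, adjusted p = 0.0094). *Xrn2*, its nuclear counterpart, had a log2 fold change of 0.35 (adjusted p = 0.0067), and *Lsm14a*, *Ddx6* and *Lsm1* had log2 fold changes of 0.41, 0.34 and 0.24. *Dcp1b*, for a decapping activator, was lower at 6.20, 6.68 and 5.47 FPKM against 2.57, 2.53 and 2.96 FPKM (log2 fold change -0.95, SE 0.11, adjusted p = 0.00085). *Lsm14b*, named here after its values were seen, was the other lower gene (log2 fold change -0.21, adjusted p = 0.035), and it was not called with quantile normalization, recomputed FPKM or limma-voom.

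The deadenylases shorten the poly(A) tail, and the RNA exosome degrades RNA from the 3′ end. Of 16 deadenylation genes, *Cnot8* was called higher (log2 fold change 0.25, adjusted p = 0.030) and *Btg4* lower (log2 fold change -0.95, adjusted p = 0.0049, at 2.13 and 0.602 FPKM). These counts of 1 higher and 1 lower stand beside 11.8% and 22.2% over all genes tested. Of 15 tested genes of the exosome list, *Dis3*, for its nuclear catalytic subunit, was called higher (log2 fold change 0.27, adjusted p = 0.020) and 3 were called lower. Both counts stand beside the same 11.8% and 22.2%. *Dis3l*, for the cytoplasmic catalytic subunit, was at 18.7, 16.7 and 15.03 FPKM in control and at 2.65, 1.69 and 1.70 FPKM in cKO libraries, and it fell by 2.57 (SE 0.15, adjusted p = 3.4e-05). *Exosc5* and *Exosc3*, for subunits of the exosome core, fell by 0.63 and 0.53 (adjusted p = 0.0012 and 0.0047). *Exosc6* was listed at 0 in all 6 libraries. With quantile normalization, which moved the median of all genes by over 0.1, 5 deadenylation and 6 exosome genes were called higher, near the 33.4% of all genes called higher in that fit. Recomputed FPKM gave 2 and 3, and limma-voom gave 2 of each, beside 14.8% and 16.1% of all genes called higher in those fits. Of 5 genes of Staufen and histone mRNA decay, *Lsm11* was called lower (log2 fold change -0.52, adjusted p = 0.021) and none was called higher. Over all genes tested, 22.2% were called lower and 11.8% higher. With quantile normalization *Lsm11* was not called (-0.20, adjusted p = 0.30), and 3 of the 5 were called higher, beside 33.4% over all genes in that fit.

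Transcripts known as NMD targets are those that rise in many cells when the pathway is impaired. Of 12 such genes, 5 were called higher and 1 lower, beside 11.8% and 22.2% over all genes tested, and the median log2 fold change was 0.24. *Gadd45b*, a stress gene, was at 27.1, 29.8 and 30.3 FPKM in control and at 58.7, 55.6 and 50.9 FPKM in cKO libraries (log2 fold change 0.90, SE 0.08, adjusted p = 0.00023). *Ern1*, *Gadd45a*, *Atf4* and *Snhg1* had log2 fold changes of 0.58, 0.52, 0.40 and 0.35 (adjusted p = 0.017, 0.0063, 0.040 and 0.014). *Ddit3* was lower, at 13.5, 11.8 and 10.02 FPKM against 6.54, 5.38 and 6.72 FPKM (log2 fold change -0.82, SE 0.13, adjusted p = 0.0034). *Gas5*, *Snhg5* and *Snhg12*, noncoding host RNAs in the same list, had log2 fold changes of -0.12, -0.14 and -0.12 and did not pass the test. These genes also answer to other signals, and the activity of NMD was not measured.

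The chromatoid body genes were called lower in 6 of 6 cases, and their median log2 fold change was -0.96. *Tdrd6* was at 27.1, 19.9 and 22.3 FPKM in control and at 0.324, 0.232 and 0.298 FPKM in cKO libraries. *Piwil1*, which also stands among the pachytene markers, had a cKO mean of 2.55 FPKM against 53.6 FPKM. *Ddx25*, *Tdrd7*, *Mael* and *Tdrd1* had log2 fold changes of -1.02, -0.90, -0.43 and -0.33, and *Tdrd1* was not called with quantile normalization, recomputed FPKM or limma-voom. The markers of pachytene spermatocytes and spermatids moved the same way, and their part in these values was not tested. Over the 9 lists, 93 genes were tested, of which 19 were called higher and 18 lower, beside 11.8% and 22.2% over all genes tested. With quantile normalization 40 of the 93 were called higher and 14 lower, beside 33.4% and 16.4% over all genes in that fit.

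**Figure D3:**
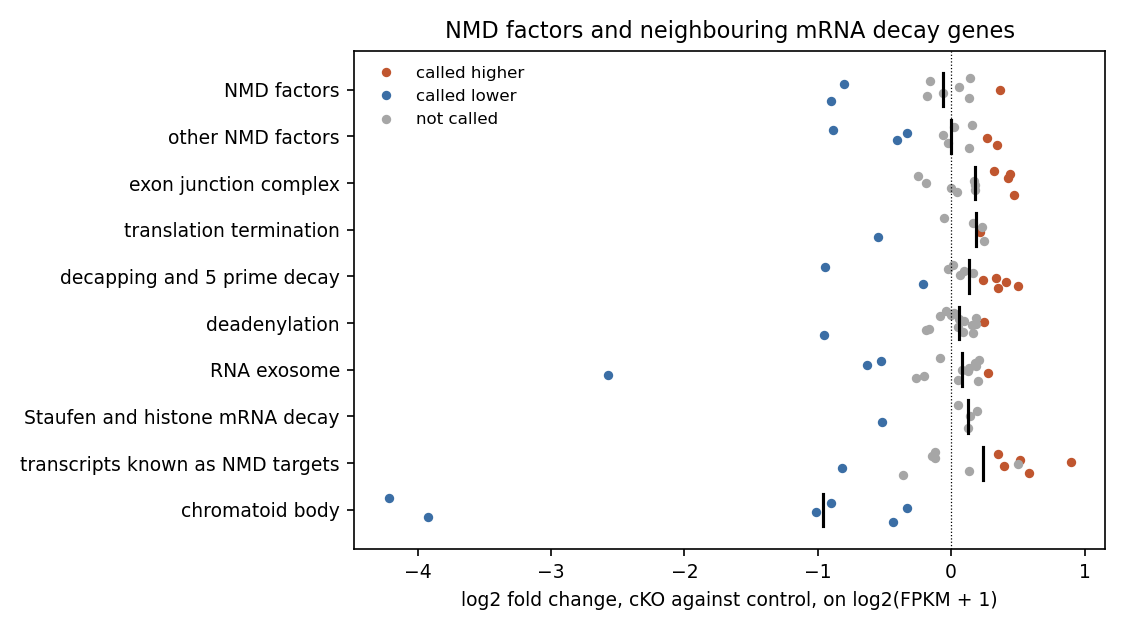
Log2 fold change (cKO against control, on log2(FPKM + 1)) of each tested gene of the NMD factors and of 9 lists of related genes, with a black line at the median of each list. Orange and blue points were called higher and lower and grey points were not called. The median of the exon junction complex lies at 0.18 and that of the chromatoid body at -0.96.

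The genes were placed in GRCm38 with the GENCODE M21 annotation, whose coordinates were the same as those of the table for 53499 of 54409 shared genes and for all 9 factors. *Upf3a* (ENSMUSG00000038398) lies on the plus strand of chromosome 8 from 13785615 to 13799193 and has 3 annotated transcripts, of which 1 is protein-coding and 2 retain an intron. The coding transcript has 9 exons and encodes 422 residues. *Smg9* (ENSMUSG00000002210) lies on the plus strand of chromosome 7 from 24399619 to 24422778, with 7 transcripts, 3 of them protein-coding and 4 with a retained intron. *Smg1* (ENSMUSG00000030655) lies on the minus strand of chromosome 7 from 118131308 to 118243670, with 63 exons in its coding transcript and 3658 residues. *Upf3b* (ENSMUSG00000036572) lies on the minus strand of the X chromosome from 37091678 to 37110322. The table gives a level for the gene as a whole, so a shift between coding and retained-intron transcripts would not be seen in it.

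Reads could be shared with other genes only to a small extent. At least 99.4% of the 100-base windows of each factor occur in no other annotated gene. Exons of *Upf1* overlap those of *Cers1* and *Gdf1* on the opposite strand by 68 and 63 bases, and exons of *Smg6* overlap those of *Srr* by 126 bases and of *Gm12333* by 117 bases. The counting strand is not given in the sources used here, so such reads could not be told apart.

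Features of the coding transcripts that the choice of factors did not use were compared with 12276 tested protein-coding genes. The 3′ untranslated region of *Smg1*, at 4233 bases, was longer than that of 95.4% of these genes, whose median was 794.5 bases. *Smg1*, *Smg5* and *Smg6* each have 1 transcript that the annotation classes as a target of NMD, and 27.9% of the compared genes have a transcript of that class. Decay of these transcripts was not measured. GGAGA, a purine-rich pentamer known from SRSF1 binding, occurred 5.83 times per kilobase in *Upf3a*, more than in 98.2% of genes. It occurred 3.84 times per kilobase in *Upf3b*, 2.23 times in *Smg9* and 1.80 times in *Smg1*, beside a median of 2.01. The other factors that were not called ran from 1.95 times in *Upf1* to 3.42 times in *Smg8* and 3.48 times in *Upf2*. Among the called factors the density thus ran from below the median to near its top. A match is a description of sequence, and binding was not measured.

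Promoter sequences of the called factors are shown because these genes moved in both directions. They were taken from RefSeq (GRCm38.p6), from 250 bases before to 50 bases after the start of transcription, and 9 of 9 factors matched. Short motifs were searched on both strands. The GC box was searched as GGGCGG, which 35.9% of 27025 promoters hold. The CCAAT box was searched as CCAAT, which 37.9% hold. The cAMP response element (CRE) was searched as TGACGTCA, which 1.88% hold. The E-box was searched as CACGTG, which 7.24% hold, and the ETS motif as CCGGAAG, which 9.12% hold. The core of the NRF1 motif, which allows either pyrimidine at a central position, is held by 2.36%, and this form was chosen after the promoters had been seen. Capitals mark each match, on either strand. *Upf3a* (chr8:13785365-13785664, plus strand) has 1 GC box and 1 CCAAT box match, *Smg9* (chr7:24399378-24399677, plus strand) has 1 GC box and 2 NRF1 matches, and *Smg1* (chr7:118243588-118243887, minus strand) has 5 GC box matches and 1 CCAAT box match. *Upf1* and *Smg6* also hold NRF1 matches. No factor holds the CRE or E-box letters in this window. The G and C content was 68.0% for *Upf3a*, 63.0% for *Smg9* and 72.0% for *Smg1*, beside a median of 52.7% over all promoters. Among the factors not called it ran from 53.3% for *Smg8* to 72.3% for *Upf1*, and *Upf2* also has 5 GC box matches.
Upf3a: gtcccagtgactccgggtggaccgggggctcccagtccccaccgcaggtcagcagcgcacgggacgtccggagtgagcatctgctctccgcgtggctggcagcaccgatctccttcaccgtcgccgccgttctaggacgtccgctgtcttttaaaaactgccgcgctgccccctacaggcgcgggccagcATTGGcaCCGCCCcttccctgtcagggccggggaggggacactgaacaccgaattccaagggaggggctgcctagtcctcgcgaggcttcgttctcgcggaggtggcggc
Smg9: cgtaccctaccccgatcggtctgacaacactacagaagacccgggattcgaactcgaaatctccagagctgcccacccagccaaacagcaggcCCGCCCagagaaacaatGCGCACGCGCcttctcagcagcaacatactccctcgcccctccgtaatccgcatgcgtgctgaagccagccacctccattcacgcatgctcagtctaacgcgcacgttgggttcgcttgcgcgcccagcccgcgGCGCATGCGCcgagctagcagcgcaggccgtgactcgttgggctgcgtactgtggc
Smg1: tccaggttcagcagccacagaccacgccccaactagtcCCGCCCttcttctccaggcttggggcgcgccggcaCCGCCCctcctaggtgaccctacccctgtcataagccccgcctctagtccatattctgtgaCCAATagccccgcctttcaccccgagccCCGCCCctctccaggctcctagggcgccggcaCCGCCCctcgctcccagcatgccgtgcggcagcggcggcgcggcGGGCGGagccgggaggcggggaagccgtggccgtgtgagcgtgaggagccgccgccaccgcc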

How the data were processed

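RNA-seq values of 3 control and 3 *Srsf1* cKO libraries of STRA8+ mouse testis cells were used, grouped by their labels. The authors deposited FPKM for 54532 genes, with gene lengths. The submitters' processing notes name HISAT2 2.0.5 and mm10, and the counting tool is not given in the sources used here. FPKM multiplied by gene length and divided by a step inferred for each library, the worth of a fragment, gave whole numbers for 100% of values (tolerance 0.01), taken as fragments. Genes whose mean reached 1 FPKM were tested on log2(FPKM + 1) with limma 3.58.1 in R 4.3.3 (lmFit, eBayes with trend), with Benjamini-Hochberg adjustment over all of them. The ratio of *Upf3a* to *Upf3b* was tested by an exact permutation test in scipy 1.17.1. The fit was tested on simulated data. All 9 factors were named, then up to 6 called genes per list whose groups did not overlap, by absolute log2 fold change, and for 3 factors the genes most alike in pattern. Some genes that this rule names are not reported here. Of 2 rows for *Ddit3*, that with the higher mean was used. The members and lists were chosen with earlier results of these data known. Alternatives were other pseudocounts, filters and scalings, eBayes without trend, limma-voom on the fragments, the replicate number as a block, and leaving out each library.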

Additional observations from a re-analysis of the deposited data

How the results depend on the processing

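*Upf3a* and *Smg9* were called lower in all 15 alternatives, at log2 fold changes from -0.90 to -0.64 and from -0.95 to -0.76, and the other factors kept their side of the threshold except as follows. Quantile normalization called 5164 genes higher and 2527 lower, against 1821 and 3437, moved the median of all genes from -0.01 to 0.21 and that of the factors to 0.039, reversed *Smg5* (0.039), called *Smg8* (0.27) and so called 2 factors higher. With a mean of at least 5 FPKM, 1950 genes were called lower, and *Upf3b* was not tested. Without 1 library, 965 to 1752 genes were called higher (965 without cKO replicate 3, 1065 without control replicate 1, 1082 without control replicate 3, 1178 without cKO replicate 1) and 2763 to 3202 lower, 0 to 1 factors were called higher, *Smg1* ran from 0.32 to 0.44 and *Upf3b* from -0.043 to 0.13, negative without control replicate 2 or cKO replicate 1 (-0.0054). The median of the factors ran from -0.09 to -0.02 and the *Upf3a* to *Upf3b* difference from -1.13 to -0.78. The causes were not tested.

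Same-numbered libraries did not deviate together (r of -0.0014, -0.11 and 0.016). Libraries with unlike numbers gave r from -0.15 to 0.13, so these values cannot show whether the numbers pair the samples. With a replicate block, 891 genes were called higher and 2870 lower, 0 factors were called higher and 2 lower, and *Smg1* kept its log2 fold change of 0.37 at an adjusted p of 0.085 in limma.

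Depth limits *Upf3b* most, with 210 to 321 fragments per library. For the 6 factors not called, a p above the threshold does not show that the groups were alike.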
